A study of Mus musculus with 6 samples.

Results

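The folate set measured here comprised 8 genes that bring folate into the cell and the mitochondrion, trap it there, spend it on thymidylate and couple it to the methionine cycle. It was chosen by name and, like the gene lists used below, with earlier results of these data known. Its folate carriers are Slc19a1, Slc46a1 and Slc25a32. The others are the polyglutamate enzymes Fpgs and Ggh, thymidylate synthase Tyms, methionine synthase Mtr and its reductase Mtrr. All 8 were found by Ensembl identifier among the 43271 genes of the count table. The RNA was from cultured brain microvascular endothelial cells, the capillary lining of the brain, isolated from wild-type C57BL/6 mice. Confluent monolayers were exposed for 24 h to 5000 ng/ml of dolutegravir (DTG), a drug that blocks the integrase of HIV, in 3 libraries, or to the solvent dimethyl sulfoxide (DMSO) alone in 3 libraries. Cultures of both groups were used at passage 2 to 6 in a medium that holds vascular endothelial growth factor, hydrocortisone and 5% serum, so they model cultured endothelium, not capillaries in place. DTG replicate 1 and DMSO replicates 2 and 3 carry a P5 tag in their library names, and the other 3 libraries carry P4. The library names also hold a number, 2 in DTG replicates 1 and 2 and 3 in DTG replicate 3, against 1 in DMSO replicates 1 and 2 and 3 in DMSO replicate 3. The labels define neither tag nor number, and libraries of a group that share a number may not be independent. The labels are also silent on whether replicates are separate cultures, so each p-value reflects the spread among these 6 libraries, which may be technical.

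Folate is a vitamin that carries single-carbon units. The reduced folate carrier (Slc19a1) and the proton-coupled carrier (Slc46a1) take it up across the plasma membrane, and Slc25a32 passes it into mitochondria. Fpgs adds a chain of glutamates that keeps folate inside the cell, and Ggh, a lysosomal hydrolase, removes that chain. Tyms uses methylene-folate to make the thymidine nucleotide of DNA. Mtr, which needs cobalamin (vitamin B12), moves a methyl group from folate to homocysteine to make methionine, and Mtrr reactivates Mtr when its cobalamin has been oxidised. At the blood-brain barrier, endothelial folate carriers form part of the route by which the vitamin reaches the brain.

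In DTG cultures Mtrr and Fpgs were higher and Ggh was lower, whereas the tested carriers and Tyms, whose changes near 0 turned negative with library-size or upper-quartile scaling, and Mtr did not pass the test. Of the 8 genes 7 had enough counts to be tested, and 2 of these passed as higher and 1 as lower at an adjusted p under 0.05. Over all 14101 genes tested, 27.4% passed as higher and 29.3% as lower (56.7% in either direction), so 3 of 7 is not above the background. The median log2 fold change was 0.04 over the 7 genes and -0.01 over all genes tested. In RNA of whole cultures, fewer cells of a type and less RNA per cell cannot be told apart. Levels are given as CPM, TMM-scaled counts relative to library size, and every adjusted p of a gene comes from edgeR's quasi-likelihood test with Benjamini-Hochberg adjustment over all genes tested.

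The libraries held 51344169 to 56316335 counts in DTG and 41162353 to 55998253 in DMSO. All 10 endothelial markers examined were present, with summed levels of 7190 to 7490 CPM in DTG libraries and 11600 to 12700 CPM in DMSO libraries, and 8 of the 10 passed as lower. Some lists of markers of other brain cells held genes at 0 beside genes that moved. Pericyte markers summed to 1.02 to 1.53 CPM in DTG and 1.11 to 1.65 CPM in DMSO, with Rgs5 and Kcnj8 at 0 in every library, Pdgfrb 3.62-fold higher in DTG and Anpep 1.9-fold lower. Fibroblast markers summed to 9.52 to 10.4 CPM in DTG and 6.68 to 7.78 CPM in DMSO, and Postn (9.69-fold) and Col1a1 (1.91-fold) passed as higher. Most of that sum was Pdgfra, which did not pass, at 6.79 CPM in DTG and 6.15 CPM in DMSO. Astrocyte markers summed to 205 to 251 CPM in DTG and 60.8 to 68.3 CPM in DMSO, nearly all of it the connexin Gja1, which endothelium can also express, while Aqp4 was at 0. The other astrocyte marker that could be tested, S100b, passed as lower, at 1.86 CPM in DTG and 4.22 CPM in DMSO (2.27-fold). Microglia and macrophage markers summed to 6.26 to 7.74 CPM in DTG and 23.6 to 29.5 CPM in DMSO, mostly Tmem119, with P2ry12 at 0. Neuron markers summed to 2.21 to 6.04 CPM in DTG and 0.158 to 0.322 CPM in DMSO, and in DTG nearly all of it was Tubb3. Oligodendrocyte markers summed to 33.5 to 42.3 CPM in DTG and 42.0 to 50 CPM in DMSO, mostly Cnp, which passed as lower, with Mog at 0. Choroid plexus markers summed to at most 0.0392 CPM in DTG and 0.118 CPM in DMSO. Their part, and that of the endothelial markers, in the results on the folate genes was not tested.

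**Figure D1:**
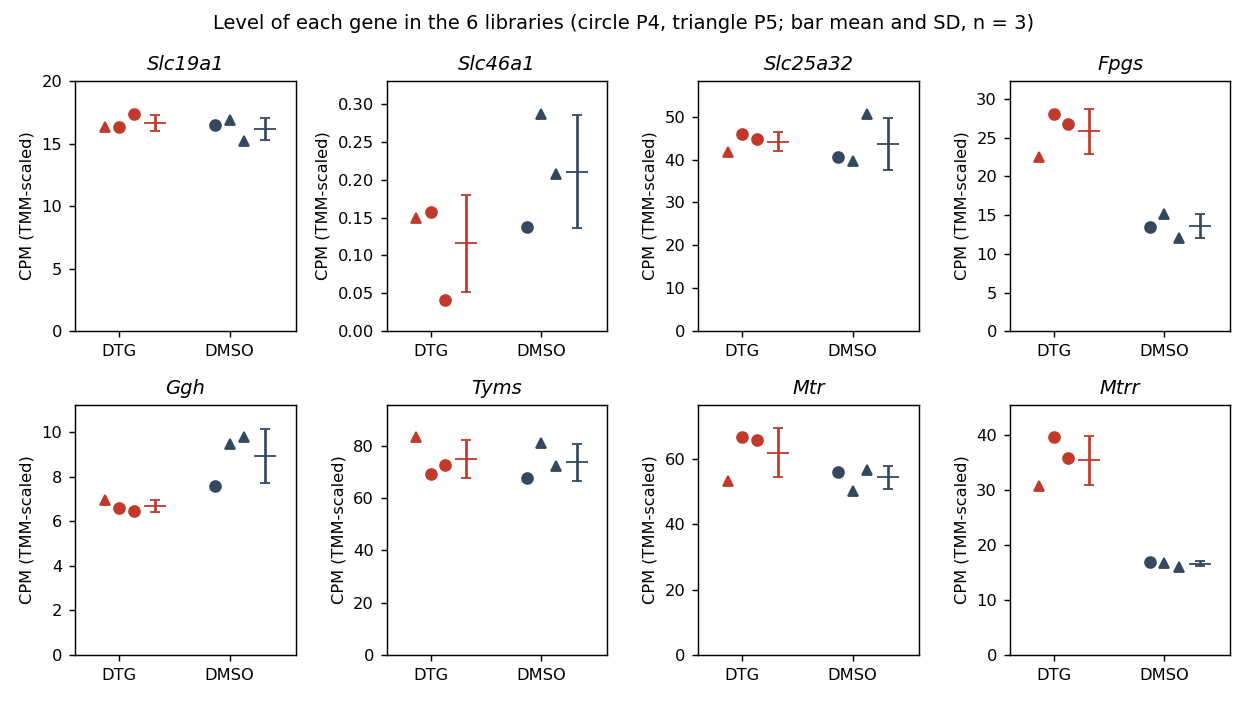
TMM-scaled CPM (vertical axis, from 0) of each of the 8 folate genes in the 3 DTG and the 3 DMSO libraries; circles are P4 and triangles P5 libraries, and the bar beside them is the mean with its SD. DTG libraries lie above all DMSO libraries for Fpgs and Mtrr and below them for Ggh, and the groups overlap for the other 5 genes. Over all genes tested, the groups did not overlap, in either direction, for 64.2%.

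Slc19a1, the carrier that takes reduced folates into most cells, was at nearly equal levels in both groups. It had 16.3, 16.3 and 17.4 CPM in DTG replicates 1, 2 and 3, against 16.5, 16.9 and 15.2 CPM in DMSO replicates 1, 2 and 3. The groups overlapped, with a log2 change of 0.04 ± 0.09 (SE, n = 3 each, edgeR adjusted p = 0.749). The fold, DTG over DMSO, had a 95% confidence interval that ran from 0.893 to 1.18. Slc19a1 overlaps Col18a1 on the opposite strand in the reference annotation, a gene at 315 ± 21.3 CPM in DTG and 363 ± 64.5 CPM in DMSO (SD, n = 3 each). Whether reads were counted by strand is not given in the sources used here, so reads from the shared stretch cannot be assigned with certainty.

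Slc46a1, the proton-coupled carrier that takes up folate in the intestine and the choroid plexus, was nearly undetected. It had 8, 8 and 2 raw counts in DTG replicates 1, 2 and 3, against 7, 17 and 9 in DMSO replicates 1, 2 and 3, and fell under the count filter. The summed counts were 18 in DTG and 33 in DMSO, a scaled ratio of 0.547 with an exact 95% interval of 0.29 to 1.0 that covers counting error only. The groups overlapped (two-sided exact permutation p = 0.3, where the smallest possible is 0.1), so no difference was detectable at this depth. Sarm1, named after its values were seen, lies within 1 kb on the opposite strand. It had 10, 7 and 3 raw counts in DTG and 10, 29 and 25 in DMSO replicates 1, 2 and 3 (log2 -1.67 ± 0.48, edgeR adjusted p = 0.0134). Whether the few counts of Slc46a1 hold reads from Sarm1 was not tested.

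Slc25a32, the mitochondrial folate carrier, also showed no difference beyond its spread. It had 41.7, 46.0 and 44.9 CPM in the DTG libraries, against 40.5, 39.7 and 50.7 CPM in the DMSO libraries, and DMSO replicate 3 was the highest of all 6. The log2 change was 0.02 ± 0.10 (SE, n = 3 each, edgeR adjusted p = 0.878), with a 95% interval of the fold from 0.866 to 1.19. The ratio of Slc25a32 to Slc19a1 counts, which does not depend on how libraries are scaled, was 2.57, 2.83 and 2.57 in DTG and 2.45, 2.35 and 3.33 in DMSO libraries. It differed by -0.01 log2 (two-sided exact permutation p = 1.0).

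Of 13 further carriers, receptors and pumps 6 were tested, 4 passed as higher and 1 as lower. Over all genes tested the shares were 27.4% and 29.3%. The folate receptor Folr1 had 0 counts in DTG and 4 in DMSO, and Folr2, Izumo1r and the organic anion transporter Slco1a4 had none in any of the 6 libraries, which allows up to 3 counts in a group. Among efflux pumps that can export folates, Abcc1 averaged 241 ± 4.32 CPM in DTG and 145 ± 11.4 CPM in DMSO (SD, n = 3 each, log2 change 0.73 ± 0.08, edgeR adjusted p = 3.12e-05). Abcc4 rose by 0.60 ± 0.07 log2 (adjusted p = 8.11e-05). Abcg2, the breast cancer resistance pump of the barrier, moved the other way, at 43.3 ± 2.98 CPM in DTG and 66.6 ± 0.91 CPM in DMSO (adjusted p = 8.48e-05). The pump Abcc3 did not pass, at 12.4 ± 3.53 CPM in DTG and 11.5 ± 1.12 CPM in DMSO (log2 0.11 ± 0.18, adjusted p = 0.609). The thiamine carrier Slc19a3, a relative of Slc19a1, had 11, 2 and 8 raw counts in DTG replicates 1, 2 and 3 and none in DMSO. Its summed DTG counts were 7.02-fold above a floor of 3 counts over the DMSO group (exact permutation p = 0.1, the smallest possible). That fold makes no allowance for counting error in DTG, where replicate 2 had only 2 counts. Abcc2, with 10 counts in DTG and 31 in DMSO, and Slco2b1, with 1 count in DTG and 20 in DMSO, were also under the filter.

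Fpgs, which makes the polyglutamate tail, rose in DTG. It had 22.5, 28.1 and 26.8 CPM in DTG replicates 1, 2 and 3, against 13.5, 15.2 and 12.1 CPM in DMSO replicates 1, 2 and 3. Every DTG library lay above every DMSO library, as was the case in either direction for 64.2% of all genes tested. The change was 1.9-fold (log2 0.93 ± 0.12, SE, n = 3 each, edgeR adjusted p = 9.69e-05), and was 1.03 log2 among P4 libraries and 0.73 among P5 libraries. Fpgs overlaps the endothelial gene Eng on the opposite strand at its 3′ end. Eng averaged 251 ± 21.7 CPM in DTG and 261 ± 8.96 CPM in DMSO, and did not pass (log2 -0.06 ± 0.08, edgeR adjusted p = 0.564).

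Ggh, which removes the tail, was lower in DTG. Its levels were 6.97, 6.61 and 6.45 CPM in the DTG libraries, against 7.56, 9.46 and 9.76 CPM in the DMSO libraries. The groups did not overlap, as was the case in either direction for 64.2% of all genes tested. However, DMSO replicate 1, the P4 library of its group, lay close to the DTG values. Ggh was 1.34-fold lower in DTG (log2 -0.42 ± 0.12, SE, n = 3 each, edgeR adjusted p = 0.0143). The difference was -0.21 log2 among the P4 libraries and -0.46 among the P5 libraries. This call was lost without DMSO replicate 2 (adjusted p = 0.0586), DTG replicate 2 (0.0588) or DTG replicate 3 (0.0748), over a range of 0.0022 to 0.0748 among the alternatives.

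The transcripts of the enzymes that remove and add the tail thus moved apart. The change was smaller for Ggh (log2 -0.42), whose call depended on single libraries, than for Fpgs (log2 0.93). The ratio of Ggh to Fpgs counts was 0.309, 0.235 and 0.241 in DTG replicates 1, 2 and 3, against 0.562, 0.623 and 0.809 in DMSO replicates 1, 2 and 3. All DTG ratios were below all DMSO ratios, a 2.53-fold difference (log2 -1.34; the exact permutation test, two-sided, gave p = 0.1, its minimum with 3 libraries a group). This ratio compares raw counts of genes of unequal length, so only its change between groups is read.

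**Figure D2:**
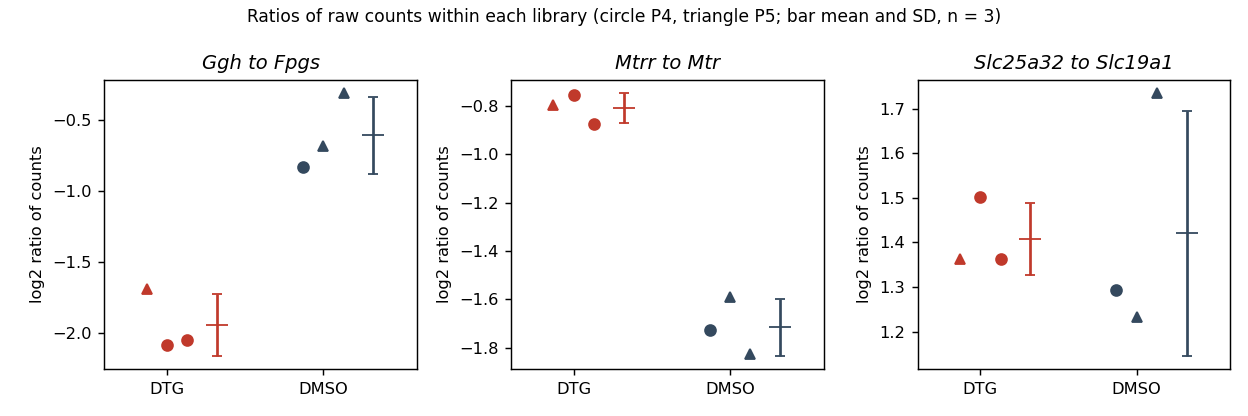
Log2 ratio of the raw counts of each gene pair within each library (vertical axes differ), with the mean and SD of the 3 DTG and the 3 DMSO libraries beside the points; circles are P4 and triangles P5. DTG lies below DMSO for Ggh to Fpgs and above it for Mtrr to Mtr, and the groups overlap for Slc25a32 to Slc19a1.

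Tyms, thymidylate synthase, did not pass the test, whereas most of the other thymidylate and deoxynucleotide genes listed were lower. It had 83.3, 69.1 and 72.6 CPM in DTG replicates 1, 2 and 3, against 67.6, 81.3 and 72.3 CPM in DMSO replicates 1, 2 and 3. The highest value of each group came from a P5 library and the groups overlapped. The log2 change was 0.02 ± 0.10 (SE, n = 3 each, edgeR adjusted p = 0.846), with a 95% interval of the fold from 0.876 to 1.18.

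Of the 11 other genes listed, of thymidylate and deoxynucleotide supply and breakdown, 2 passed as higher and 7 as lower. Over all genes tested the shares were 27.4% and 29.3%. The median was -0.47 log2 against -0.01 over all genes tested. Thymidine kinase Tk1, which salvages thymidine in dividing cells, averaged 18.0 ± 2.11 CPM in DTG and 45.2 ± 5.07 CPM in DMSO (SD, n = 3 each, edgeR adjusted p = 6.99e-06). Rrm2, a subunit of ribonucleotide reductase, averaged 56.3 ± 2.18 CPM in DTG and 87.1 ± 5.44 CPM in DMSO (adjusted p = 7.75e-05). The deoxycytidylate deaminase Dctd, which makes the substrate of Tyms, and the mitochondrial kinase Tk2 were the pair that rose, by 0.85 ± 0.10 and 0.46 ± 0.10 log2.

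Genes of DNA synthesis moved in the same cultures. Of 19 S phase genes, among them Tk1, Rrm1 and Rrm2, 14 passed as lower and 0 as higher, against 29.3% and 27.4% of all genes tested. Their summed level was 841 to 1050 CPM in DTG and 1280 to 1400 CPM in DMSO. Their part in the values of Tyms was not tested.

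Mtr, methionine synthase, had 53.2, 66.6 and 65.8 CPM in DTG replicates 1, 2 and 3, against 56.0, 50.3 and 56.7 CPM in DMSO replicates 1, 2 and 3. DTG replicates 2 and 3, both P4, lay above all DMSO libraries, while DTG replicate 1, a P5 library, lay among them. The log2 change of 0.19 ± 0.10 did not pass (SE, n = 3 each, edgeR adjusted p = 0.13). It was 0.24 among P4 libraries and 0.00 among P5 libraries. Without DTG replicate 1 Mtr passed as higher, by 0.32 log2 (adjusted p = 0.00779, range over alternatives 0.00779 to 0.891).

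Mtrr, the flavoprotein that reactivates methionine synthase, was the gene of the set with the largest fold. It had 30.7, 39.5 and 35.8 CPM in DTG replicates 1, 2 and 3, against 16.9, 16.7 and 16.0 CPM in DMSO replicates 1, 2 and 3. All DTG libraries lay far above the narrow range of the DMSO libraries. A lack of overlap, in either direction, held for 64.2% of all genes tested. Mtrr rose 2.14-fold (log2 1.10 ± 0.10, SE, n = 3 each, edgeR adjusted p = 1.4e-05), by 1.16 among P4 and 0.91 among P5 libraries.

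The ratio of Mtrr to Mtr counts was 0.576, 0.593 and 0.545 in DTG libraries, against 0.302, 0.332 and 0.282 in DMSO libraries. It was 1.88-fold higher in DTG, with no overlap (two-sided exact permutation p = 0.1, the smallest possible). The Mtrr transcript was thus higher relative to Mtr in each of the 3 DTG libraries.

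Mtrr starts head to head with Fastkd3, a gene for a mitochondrial RNA-binding protein on the opposite strand. Fastkd3, named after its values were seen, averaged 10.7 ± 1.12 CPM in DTG and 6.84 ± 0.40 CPM in DMSO (SD, n = 3 each, log2 0.64 ± 0.11, edgeR adjusted p = 0.000894). Every DTG library was above every DMSO library for both neighbours, and the groups did not overlap, in either direction, for 64.2% of all genes tested. The start of Mtrr is shown because it lies beside that of Fastkd3 and belongs to the member with the largest rise. The window is chr13:68582120-68582419 on the minus strand of GRCm38.p6, a RefSeq build other than that of the counts. It holds 250 bases before and, in capitals, 50 bases from an annotated start of Mtrr. The annotated start of Fastkd3 lies 41 bases before this start, inside the same window, and the bases of the window beyond that point lie within Fastkd3. Another annotated start of Mtrr, whose window is not shown, lies 106 bases from that of Fastkd3.
Mtrr: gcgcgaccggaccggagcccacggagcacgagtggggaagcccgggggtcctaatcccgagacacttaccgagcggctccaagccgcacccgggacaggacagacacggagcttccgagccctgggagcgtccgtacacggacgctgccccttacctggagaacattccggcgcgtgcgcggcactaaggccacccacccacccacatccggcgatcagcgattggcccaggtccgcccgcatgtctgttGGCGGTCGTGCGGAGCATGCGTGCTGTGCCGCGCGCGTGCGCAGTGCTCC

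This window was 69.7% G or C. Both strands of the start windows were searched for TGATGNAAT (the C/EBP-ATF response element), TGACGTGG (the unfolded protein response element), TTTGGCGC and TTTCCCGC (forms of the E2F site) and CACGTG (the E-box). These letters occur in 0.965%, 0.676%, 0.514%, 1.07% and 7.15% of all 32851 RefSeq windows of that length. The table holds windows for 6 of the 8 folate genes, and the 1 match in their 8 windows was a CACGTG before the start of Tyms. A missing match says only that these letters are not in these windows.

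Compared per kilobase of the longest coding transcript in GENCODE M21, Tyms was the most abundant of the 8 transcripts, at 23.7 ± 2.33 CPM per kb in DTG and 23.3 ± 2.21 CPM per kb in DMSO (SD, n = 3 each). In DTG the order below it was Fpgs at 11.3, Mtrr at 9.15, Slc25a32 at 7.49, Mtr at 7.46, Slc19a1 at 5.82, Ggh at 3.40 and Slc46a1 at 0.0585 CPM per kb. In DMSO it was Slc25a32 at 7.39, Mtr at 6.55, Fpgs at 5.97, Slc19a1 at 5.67, Ggh at 4.54, Mtrr at 4.28 and Slc46a1 at 0.106 CPM per kb. The libraries of Slc25a32 and Mtr overlapped in both groups, those of Fpgs and Mtrr and of Mtrr and Mtr overlapped in DTG, and those of Mtr and Fpgs, of Fpgs and Slc19a1 and of Ggh and Mtrr overlapped in DMSO.

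The wider pathway was described with 7 lists of related genes, written with earlier results of these data known. Of their 78 distinct genes 62 were tested, 29 passed as higher and 17 as lower, with a median log2 change of 0.20. With library-size scaling 24 passed as higher and 21 as lower, with a median of 0.03. Beside these counts and those of each list stand the shares over all genes tested, 27.4% higher and 29.3% lower. In the mitochondrial branch 7 of 10 tested enzymes passed as higher and 1 as lower, and the smallest p-values were those of Aldh1l2 (log2 6.76 ± 0.11) and Shmt2 (log2 2.04 ± 0.14). Aldh1l2 oxidises formyl-folate in mitochondria, and Shmt2 makes glycine from serine. The glycine cleavage gene Amt was the 1 that was lower (log2 -0.48 ± 0.17, edgeR adjusted p = 0.0318). That call was lost without 5 of the 6 libraries, namely DMSO replicates 1, 2 and 3 and DTG replicates 2 and 3 (adjusted p from 0.0614 to 0.145). The carrier that feeds this branch, Slc25a32, did not pass, as described above.

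**Figure D3:**
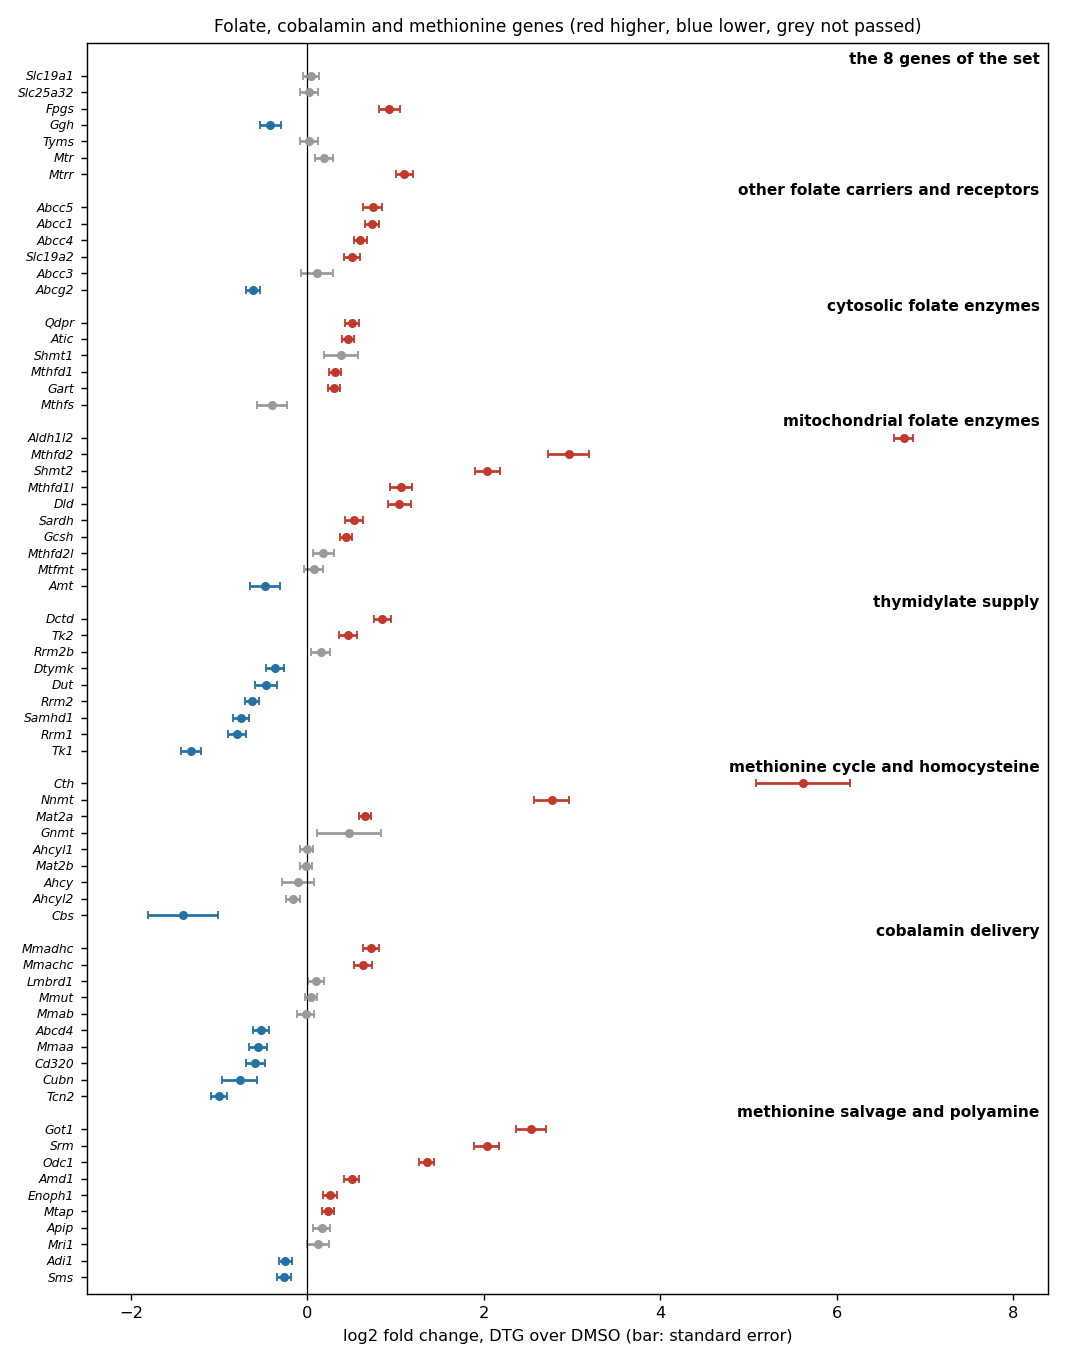
Log2 fold change, DTG over DMSO, with its standard error (n = 3 each) for the 7 tested folate genes and for tested genes of the 7 related lists, each drawn once. Red marks genes that passed as higher, blue as lower and grey those that did not pass; Aldh1l2 lies farthest right, at 6.76.

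Cytosolic folate enzymes showed smaller changes. Of 8 tested, 5 passed as higher and 1 as lower, with a median of 0.32 log2, whereas 2 were higher and 2 lower when libraries were scaled by their totals alone. Atic, which closes the purine ring with formyl-folate, averaged 72.9 ± 3.59 CPM in DTG and 53.0 ± 1.57 CPM in DMSO (SD, n = 3 each, edgeR adjusted p = 0.000428). Qdpr, a pteridine reductase, averaged 137 ± 8.61 CPM in DTG and 96.0 ± 4.99 CPM in DMSO (adjusted p = 0.00034).

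In the methionine cycle, 3 of 9 tested genes passed as higher and 1 as lower, and the median was -0.01 log2. When libraries were scaled by their totals alone, 4 passed as lower. Mat2a, which turns methionine into the methyl donor S-adenosylmethionine, averaged 580 ± 16.6 CPM in DTG and 371 ± 15.1 CPM in DMSO (SD, n = 3 each, edgeR adjusted p = 4.32e-05). Its regulatory partner Mat2b did not pass, at a log2 change of -0.02 ± 0.07. Nnmt, which methylates nicotinamide, had 6.07 ± 0.64 CPM in DTG and 0.874 ± 0.253 CPM in DMSO (adjusted p = 2.84e-06). The third that passed as higher was Cth, the enzyme after Cbs (log2 5.62 ± 0.53, edgeR adjusted p = 0.000299). Cth had 19.3, 51.9 and 52.6 CPM in DTG replicates 1, 2 and 3, against 0.985, 0.674 and 0.875 CPM in the DMSO libraries. Its difference was 5.73 log2 among P4 libraries and 4.65 among P5 libraries. Cbs, which commits homocysteine to cysteine, was low in both groups, at 0.261 ± 0.013 CPM in DTG and 0.694 ± 0.388 CPM in DMSO (adjusted p = 0.0119). Without DMSO replicate 1 the Cbs call was lost (adjusted p = 0.052). Bhmt and Bhmt2, the liver enzymes that remethylate homocysteine without folate, and Mat1a had at most 3 counts each over all 6 libraries, so Mtr was the only remethylation enzyme of these lists that could be tested.

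Cobalamin delivery, on which Mtr depends, was mixed. Of 11 tested genes 3 passed as higher and 5 as lower, with a median of -0.02 log2. Tcn2, which carries cobalamin in blood and is secreted by endothelium, averaged 153 ± 15.7 CPM in DTG and 307 ± 21.3 CPM in DMSO (SD, n = 3 each, edgeR adjusted p = 1.23e-05). Its receptor Cd320 fell by 0.59 ± 0.11 log2 (adjusted p = 0.00111). Mmaa, which serves the mitochondrial cobalamin enzyme, fell by 0.56 ± 0.10 log2 (adjusted p = 0.000751). Abcd4, which takes part in the release of cobalamin from lysosomes, fell by 0.53 ± 0.09 log2 (adjusted p = 0.00087), and its partner Lmbrd1 did not pass (log2 0.10 ± 0.09, adjusted p = 0.319). Mmadhc, which directs cobalamin towards Mtr or the mitochondrion, averaged 80.7 ± 7.71 CPM in DTG and 48.8 ± 2.66 CPM in DMSO (adjusted p = 7.93e-05). Mmachc, which processes it first, rose by 0.63 ± 0.10 log2 (adjusted p = 0.000362). The pump Abcc1, which also exports cobalamin from cells, was the third on this list to pass as higher.

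Of 10 genes that recycle methionine or make polyamines from S-adenosylmethionine, 6 passed as higher and 2 as lower, or 4 and 2 with library-size scaling. Odc1, the first polyamine enzyme, averaged 1090 ± 76.4 CPM in DTG and 426 ± 16.0 CPM in DMSO, and spermidine synthase Srm 86.0 ± 14.8 CPM in DTG and 21.0 ± 3.07 CPM in DMSO (SD, n = 3 each, edgeR adjusted p = 9.86e-07 and 2.84e-06). The pair that was lower, Adi1 of the salvage route and spermine synthase Sms, changed by -0.25 and -0.27 log2. Both calls were lost without DTG replicate 3 (adjusted p = 0.091 and 0.0854), and that of Adi1 also without DTG replicate 2 (0.115).

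Among 12268 other named genes tested, those whose centred log2 profile over the 6 libraries lay closest to each changed folate gene were found by root mean square difference. They were Nbas (0.037) and Rrbp1 (0.045) for Mtrr, Zfp593 (0.031) and Saraf (0.045) for Fpgs, and Golga7b (0.035) and Ipp (0.036) for Ggh. With libraries of only 2 groups, such closeness mainly reflects a like fold and a like order of libraries.

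The direction of the 3 genes that passed did not turn under any of the 17 alternatives of tool, scaling, filter, covariate and library. Whether the response to DTG differed between tags could not be settled. In edgeR's treatment by tag interaction no folate gene passed (lowest adjusted p = 0.613 and lowest unadjusted p = 0.135 among the 7 genes), but over all genes 0 passed too and 1351 of 14101 had an unadjusted p under 0.05. With 1 library of one group in each tag, this fit does not show that the responses were alike.

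**Figure D4:**
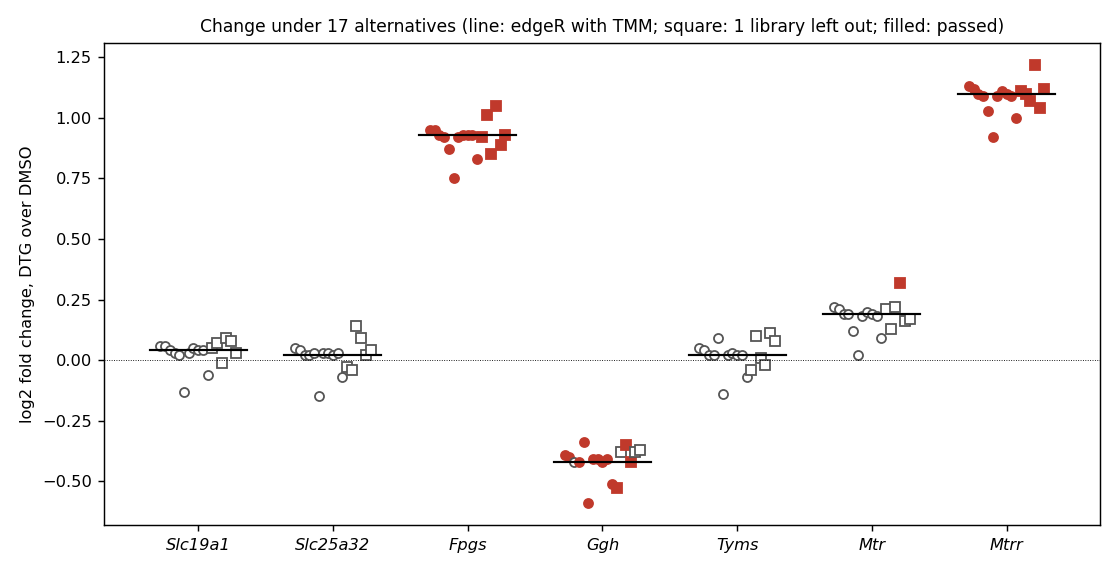
Log2 fold change, DTG over DMSO, of the 7 tested folate genes with TMM scaling in edgeR (line) and under 17 alternatives (points; squares leave out 1 library, filled points passed the threshold). Mtrr and Fpgs passed in all of them, Ggh in 13 and Mtr in 1, while Slc19a1, Slc25a32 and Tyms passed in none.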

How the data were processed

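The values are raw counts, deposited by the authors in 1 table as whole numbers for each Ensembl gene and without normalization. Per the submitters' processing notes the build was GRCm39; for the aligner, the counter, its strand setting and the annotation, the sources used here give nothing. Per the labels' protocols, TRIzol RNA (2 µg) entered a stranded poly(A) kit. DIG stands in place of DTG in 1 column name, which was matched to DTG replicate 1 through its library name. GENCODE M21 named 89.2% of identifiers.

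Counts were analysed with edgeR 4.0.16 (filterByExpr, TMM, robust quasi-likelihood F-test, group as only term, Benjamini-Hochberg over 14101 genes, threshold 0.05), after a test on simulated data. The simulation changed only a small share of genes, whereas 56.7% passed here, so it cannot show how the scaling or the threshold performs on these data. SE is the size of the log2 fold change divided by the root of F. Count ratios were compared by exact permutation (scipy 1.17.1).

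Members and lists were chosen with earlier results of these data known. Named from each list were the 2 smallest p-values in each direction and carriers under the filter, except that some list genes are counted but not reported here by name; Cth, Cd320, Mmachc, Abcd4, Lmbrd1, Abcc3 and Mat2b were named after their values were seen. Alternatives used DESeq2 1.42.0, limma-voom 3.58.1, other scalings and filters, no robust estimation, a threshold of 0.01, a replicate block, the library tag as a covariate, and fits without each library. Libraries with the same title number did not deviate together (r over genes, themselves not independent, of -0.295, -0.106 and -0.074). Title numbers were not taken as pairs. Each such pair also joined a P4 with a P5 library, so this check cannot separate number from tag. Pairs of a DTG and a DMSO library with the same tag had r of 0.134 to 0.226. The remaining pairs, of unlike tag, had r of -0.145 and -0.119.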

Additional observations from a re-analysis of the deposited data

How the results depend on the processing

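Fpgs and Mtrr kept their direction and passed under all 17 alternatives (log2 0.75 to 1.05 and 0.92 to 1.22). Ggh kept its direction (log2 -0.59 to -0.34) but missed a threshold of 0.01 (adjusted p = 0.0143, log2 -0.42, leaving 0 lower genes in the set), and with 1 library left out it ranged from -0.53 to -0.35. Leaving out 1 library gave Mtr 0.13 to 0.32, and the set 2 to 3 higher and 0 to 1 lower genes.

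Slc19a1, Slc25a32 and Tyms changed sign under some alternatives and passed under none. With library-size scaling, which moved the median of all genes to -0.18 log2 from -0.01, they were at -0.13, -0.15 and -0.14, and with upper-quartile factors at -0.06, -0.07 and -0.07. With 1 library left out they ranged from -0.01 to 0.09, -0.04 to 0.14 and -0.04 to 0.11. The Slc25a32 to Slc19a1 ratio was 0.07 by medians and -0.11 to 0.15 with 1 library left out. The cause was not tested. The Ggh to Fpgs and Mtrr to Mtr ratios kept their direction, and Slc46a1 ranged from -1.13 to -0.49.

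Over all genes 3860 passed as higher and 4130 as lower, against 2536 and 5730 with library-size scaling, 3069 and 4963 with upper-quartile factors, and 4122 and 3660 with DESeq2. With title numbers as a replicate block 3543 and 3728 passed, and Mtrr, Fpgs and Ggh were at 1.09, 0.93 and -0.41 log2; the block changed no call among the folate genes. Of 390 values of the 23 pathway genes that the naming rule picked, under the alternatives, 377 stayed on their side of the threshold, 13 lost the call and 0 changed direction. Depth limits Slc46a1 and Folr1.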
